A study of Mus musculus with 8 samples.

Results

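Mitochondrial ribosomal protein genes are the nuclear genes whose products assemble with mitochondrial rRNA into the ribosome of the mitochondrial matrix. They were taken as the genes of the deposited table whose symbol is Mrpl or Mrps followed by a number and at most 1 letter from a to c. The rule found 77 of 21765 gene symbols, and all 77 were among the 16097 genes tested. The study profiled polysome-bound RNA of the mouse main olfactory epithelium, the sensory lining of the nose, with 8 libraries. All tissue was held in 100 µg/mL cycloheximide, which stalls elongating ribosomes, and lysates were spun through sucrose gradients into about 42 fractions of 350 µL. Early polysomes pooled 50 µL of each of fractions 27 to 34, and late polysomes pooled the denser fractions 35 to 42. Wild-type (WT) mice carried floxed Mex3a alleles, either flox/flox or flox/+, without Cre, and conditional knockout (cKO) mice were Mex3a flox/flox with Cre, so control alleles were floxed as well. Mex3a encodes an RNA-binding protein. Genotype and fraction define 4 groups of 2 libraries, which were made from 2 WT and 2 cKO lysates. The labels give no age and do not say whether each lysate came from 1 animal, so p-values measure the spread between these lysates and libraries.

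The mitoribosome translates the few mRNAs of the mitochondrial genome, which encode membrane subunits of the respiratory chain and ATP synthase. Its large subunit holds the peptidyl transferase centre and its small subunit the decoding centre. Many of its proteins descend from bacterial ribosomal proteins, while others are specific to mitochondria. All of them are made by cytosolic ribosomes from nuclear mRNAs and imported. The libraries give the relative levels of these mRNAs in early and late polysomes, and the number of ribosomes per mRNA was not measured. A transcript moves to denser fractions when it carries more ribosomes, and a short reading frame has room for fewer.

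Across the 8 libraries, the whole reads inferred behind the values summed to between 7776792 and 12771079, lowest in cKO late replicate 2, and single member values rested on 20 to 949 reads. Levels are TPM (transcripts per 1000000 transcripts), which are per length. Mex3a itself had 97.4 and 115.6 TPM (early) and 93.2 and 95.6 TPM (late) in the WT libraries, against 13.9 and 19.8 TPM (early) and 11.1 and 13.8 TPM (late) in the cKO libraries. For WT early replicate 2, the title says WT while the genotype label is that of the cKO mice. The title was followed, and the Mex3a level of this library, 115.6 TPM, was the highest of the 8. Omp, the marker of mature olfactory neurons, ranged from 2439 to 5393 TPM, and Cyp2g1, of sustentacular cells, from 697 to 3419 TPM, while the muscle gene Ckm stayed between 0.162 and 1.63 TPM and the leukocyte gene Ptprc between 4.11 and 6.6 TPM. In these bulk samples, fewer cells of a type and less RNA per cell cannot be told apart.

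The start codon contexts of the 8 members that fell most from early to late polysomes and of all 8 that rose are shown first. The contexts are those of the annotated start codon in the transcript with the longest reading frame, and the use of these start codons was not measured. Each runs from 9 bases before the A of the start codon to 13 bases counted from that A. Capitals mark the base at −3, the start codon and the base at +4. The members that fell are:
Mrps14: gcagacAacATGGcggcgtccg
Mrpl33: cggtggAccATGCtgctctccg
Mrps18c: cggagaAccATGGccgctctgg
Mrps21: tacgagGccATGGctaaacatc
Mrps36: ggggtcAcgATGGgcagcaaga
Mrpl14: tgggatCccATGGccgccctta
Mrpl42: ctaaggAtcATGGctgcggcag
Mrpl23: atttgaGatATGCtgtttgggg
The members that rose are:
Mrps31: atttacAcgATGCtccacagaa
Mrps27: cgctccAagATGGcggctccca
Mrps22: ctggtaAtcATGGctgcagtca
Mrpl44: gttcttGccATGGcttctgctg
Mrpl19: ggtgtaGacATGGcggcctcca
Mrpl24: aatctaGctATGCggctctcag
Mrps30: cgggcgAaaATGGcggcggcca
Mrps5: ggctccAgcATGGcggcggccg

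Positions are on GRCm38, from the GENCODE gene models. Mrps14 lies at chr1:160195215-160202170 on the plus strand, with the A of its start codon at 160195267. Mrpl33 lies at chr5:31596935-31664384 on the plus strand, with its start codon at 31614001. Mrps31 lies at chr8:22411361-22429665 on the plus strand, with its start codon at 22411466. Mrps27 lies at chr13:99344786-99415562 on the plus strand, with its start codon at 99344803. The 77 members are spread over 17 chromosomes.

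A purine at −3 and G at +4 are the best known features of an efficient mammalian start codon. Of the 77 members, 73 (94.8%) had a purine at −3, against 84.9% of the 14096 tested genes with an annotated start codon. G at +4 stood in 53 members (68.8%, against 52.0% of those genes). Both were present in 50 members (64.9%), against 43.8% of all these genes and 51.3% of the cytosolic ribosomal protein genes. Taken singly, a purine at −3 stood in 98.7% of the cytosolic ribosomal protein genes, and G at +4 in 52.6%. Among 23 genes of mitoribosome assembly and rRNA modification, 78.3% had the purine, 69.6% the G and 56.5% both. Among the members that rose, 6 of 8 had both features, and among those that fell, 38 of 62 did (61.3%). Of the 7 members called in neither direction, 6 had both (85.7%). These shares are a description of the annotated sequences.

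The shortest reading frame among the members belongs to Mrpl33, a large-subunit protein with a bacterial relative. It has 195 nt without its stop codon, and is shown whole, with the start codon in capitals, as the short end of the range of lengths described further on:
Mrpl33: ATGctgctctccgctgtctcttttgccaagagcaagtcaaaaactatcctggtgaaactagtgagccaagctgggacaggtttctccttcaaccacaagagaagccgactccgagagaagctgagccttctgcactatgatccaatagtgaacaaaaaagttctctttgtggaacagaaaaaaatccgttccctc

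By quartiles, the levels of the members lay closer together than those of all tested genes. The mean scaled TPM of a member over the 8 libraries ranged from 11.1 to 249, with a median of 58.3, against a median of 22.8 for all tested genes. The upper quartile was 1.96 times the lower among members, 2.61 times among 79 cytosolic ribosomal protein genes (median 377 TPM), 2.89 times among 81 nuclear genes of the respiratory chain (median 213 TPM), and 8.10 times among all tested genes. It was 2.15 times the lower among 17 mitochondrial tRNA synthetases and 2.19 times among 25 genes of mitoribosome assembly and rRNA modification. Among 14 mitochondrial translation factors it was 2.69 times, and among 6 mitoribosome subunits with other gene names 3.67 times. Mrpl52, a mitochondria-specific protein of the large subunit, was highest at a mean of 249 TPM. It was followed by Mrpl42 (147 TPM), Mrpl12 (139 TPM), whose product forms the stalk that recruits translation factors, Mrps21 (135 TPM) and Mrpl24 (130.1 TPM). The lowest were Mrpl19 (11.1 TPM), Mrpl1 (12.8 TPM), Mrpl35 (18.4 TPM), Mrps18b (20.6 TPM) and Mrpl17 (21.1 TPM). The summed TPM of the 77 members was 6184 and 6466 (WT) and 6313 and 6545 (cKO) in early polysomes, and 3846 and 3554 (WT) and 3844 and 3524 (cKO) in late ones. The members therefore took 0.618% to 0.655% of the early libraries and 0.352% to 0.385% of the late ones, and the early and late sums did not overlap.

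The first comparison asked how the members' relative levels differed between lighter and heavier polysomes. Values are relative to the other genes of the same library, and the scaling between libraries largely sets the median over all genes. How the molecules of a transcript were divided between the pools was not measured. Most members were enriched in early polysomes: averaged over the genotypes, 62 of 77 fell from early to late, 8 rose and 7 did not pass the test. Of all tested genes 68.9% passed, 34.6% lower and 34.3% higher in late polysomes (limma on log2(scaled TPM + 1), Benjamini-Hochberg adjusted p under 0.05). The median change of the members was −1.0 on the log2 scale, with quartiles at −1.28 and −0.59, beside a median of −0.01 for all tested genes. The median was −0.86 and −1.11 in the WT lysates and −0.89 and −1.13 in the cKO lysates (mean −0.99 ± 0.14, SD, n = 4 lysates). Both lysates numbered 2 thus had the lower median, and 51 of 77 members had the lower change in lysate 2 in both genotypes. This count was not made over all tested genes. The step was not particular to the members. From lysate 1 to 2, cytosolic ribosomal proteins went from −0.91 to −1.15 (WT) and −0.89 to −1.54 (cKO) at the median. Nuclear respiratory chain genes went from −1.07 to −1.41 (WT) and −1.18 to −1.60 (cKO). Mitochondrial tRNA synthetases, translation factors and assembly genes each had the lower median in lysate 2 in a single genotype. In scaled TPM, all 4 early libraries were above all 4 late libraries for 62 members and below them for 6, while among all tested genes 62.5% did not overlap (30.9% lower and 31.5% higher in late polysomes).

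**Figure D1:**
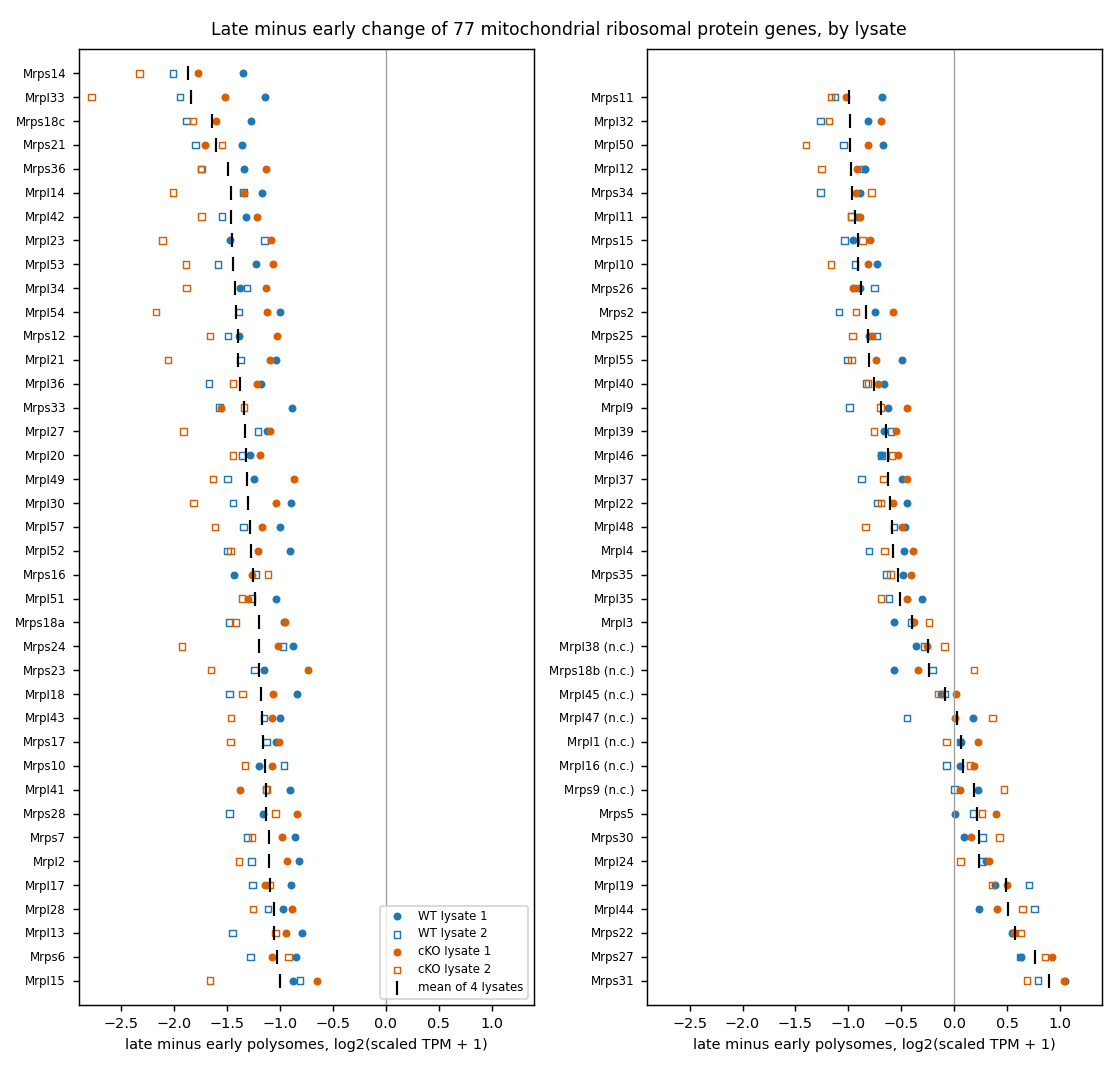
Late minus early difference in log2(scaled TPM + 1) for each of the 77 members, with 1 symbol per lysate (blue WT, orange cKO; filled lysate 1, open lysate 2) and a bar at the mean, ordered by the mean and marked n.c. where the test was not passed. The mean runs from −1.86 in Mrps14 to 0.89 in Mrps31, and 65 of 77 members lie below 0, as do 50.5% of all tested genes.

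The 8 largest falls were in short members of both subunits, with reading frames of 195 to 516 nt. Mrps14, a small-subunit protein with a bacterial relative, was at 68.7 and 83.3 TPM in WT early and at 77.6 and 90.3 TPM in cKO early, against 28.1 and 21.8 TPM in WT late and 23.3 and 19.4 TPM in cKO late. The lowest early library was far above the highest late one, and the log2 change was −1.86 ± 0.12 (SE, limma adjusted p = 1.88e-05). Mrpl33, whose reading frame is printed above, was at 86.3 and 92.9 TPM in WT early and 103 TPM in each cKO early library. In late polysomes it had 41.1 and 25.6 TPM in WT and 37.5 and 15.9 TPM in cKO. Its change was −1.84 ± 0.25 (SE, limma adjusted p = 0.000259), and its spread over lysates was the widest of the members, from −1.14 in WT lysate 1 to −2.78 in cKO lysate 2, where it rested on 20 reads. Mrps18c went from 101 and 117 TPM (WT early) and 102 and 93.1 TPM (cKO early) to 43.8 and 33.8 TPM (WT late) and 34.8 and 28.8 TPM (cKO late). Its change was −1.65 ± 0.11 (SE, limma adjusted p = 1.88e-05), with no overlap between fractions. Mrps21, the second shortest member at 261 nt, was among the most abundant in early polysomes (200.2 and 214 TPM in WT, 203 and 172 TPM in cKO). In late polysomes it had 82.5 and 66.4 TPM in WT and 65.1 and 65.6 TPM in cKO, a change of −1.60 ± 0.09 (SE).

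Mrpl14, Mrpl42 and Mrpl23 of the large subunit had changes of −1.46, −1.46 and −1.45 on the log2 scale. Mrpl42, specific to mitochondria, was at 188 to 239 TPM in the 4 early libraries and at 77.1 to 85.2 TPM in the 4 late ones. Mrpl23, which lines the exit of the peptide tunnel, was at 73.0 to 81.4 TPM in early and 20.4 to 37.1 TPM in late polysomes. Mrps36 carries the name of a ribosomal protein but is now known as a component of the 2-oxoglutarate dehydrogenase complex. It was at 51.9, 56.4, 51.7 and 57.6 TPM in the early libraries (WT then cKO) and at 21.1, 17.6, 24.4 and 18.6 TPM in the late ones, a change of −1.49 ± 0.11 (SE, limma adjusted p = 2.33e-05). The annotation holds pseudogenes named after Mrps36 (3) and Mrpl23 (1), and the exons of Mrpl33 and Mrps18c overlap an unnamed gene model on the same strand, so reads of these members could have been shared between loci.

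Each of the 8 members that rose had a reading frame longer than the members' median of 576 nt, from 648 nt in Mrpl24 to 1326 nt in Mrps30. Mrps31, a mitochondria-specific protein of the small subunit, was at 21.9 and 26.0 TPM in WT early and 23 and 20 TPM in cKO early. In late polysomes it reached 49.3 and 50.0 TPM in WT and 51.2 and 36.9 TPM in cKO. The late libraries were all above the early ones, and the change was 0.89 ± 0.12 (SE, limma adjusted p = 0.000251), the largest rise of the 77. Mrps27, a pentatricopeptide repeat protein of the small subunit, was at 19.9 and 19.4 TPM (WT) and 17.0 and 16.4 TPM (cKO) in early polysomes, and at 33.3 and 33.1 TPM (WT) and 35.0 and 34.3 TPM (cKO) in late ones. Replicates were close and the fractions well apart, with a change of 0.76 ± 0.07 (SE, limma adjusted p = 3.79e-05). Mrps22, another mitochondria-specific protein of the small subunit, was at 41.6 to 45.8 TPM in early and 68.3 to 72.9 TPM in late libraries, a change of 0.57 ± 0.06 (SE).

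In the large subunit, Mrpl44, which has a ribonuclease III fold, was at 38.5 and 30.6 TPM (WT) and 39.7 and 35.4 TPM (cKO) in early polysomes and at 48.3 and 57.1 TPM (WT) and 56.2 and 62.8 TPM (cKO) in late ones. Its change was 0.51 ± 0.09 (SE, limma adjusted p = 0.00133). Mrpl19, the least abundant member, was at 7.66 to 10.3 TPM in early and 13 to 14.6 TPM in late libraries, a change of 0.49 ± 0.11 (SE). The remaining rises were small. Mrpl24 was at 113 to 120.4 TPM in early and 134 to 158 TPM in late polysomes, Mrps30, which despite its name sits in the large subunit, at 43.5 to 47.6 and 50.7 to 72.3 TPM, and Mrps5, a small-subunit protein near the mRNA entry, at 93.8 to 118 and 124 to 132 TPM. Their changes were 0.24, 0.24 and 0.21 (limma adjusted p = 0.0177, 0.0325 and 0.0272). Scaled values of Mrps30 and Mrps5 overlapped between fractions, and each of them lost its call in some fits without 1 library: Mrpl24 without WT early replicate 1 or WT late replicate 2, Mrps30 without any but WT late replicate 1 and cKO late replicate 1, and Mrps5 without WT early replicate 2, either WT late library, cKO early replicate 1 or cKO late replicate 1. Exons of Mrpl24, Mrpl19, Mrpl44, Mrps27 and Mrps30 overlap Rrnad1, Gcfc2, Wdfy1, 6430562O15Rik and B430218F22Rik on the opposite strand. Among the 8 largest falls, exons of Mrpl14 overlap Tmem63b in the same way. The kit keeps strand, but whether the counting used it is not given in the sources used here.

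**Figure D2:**
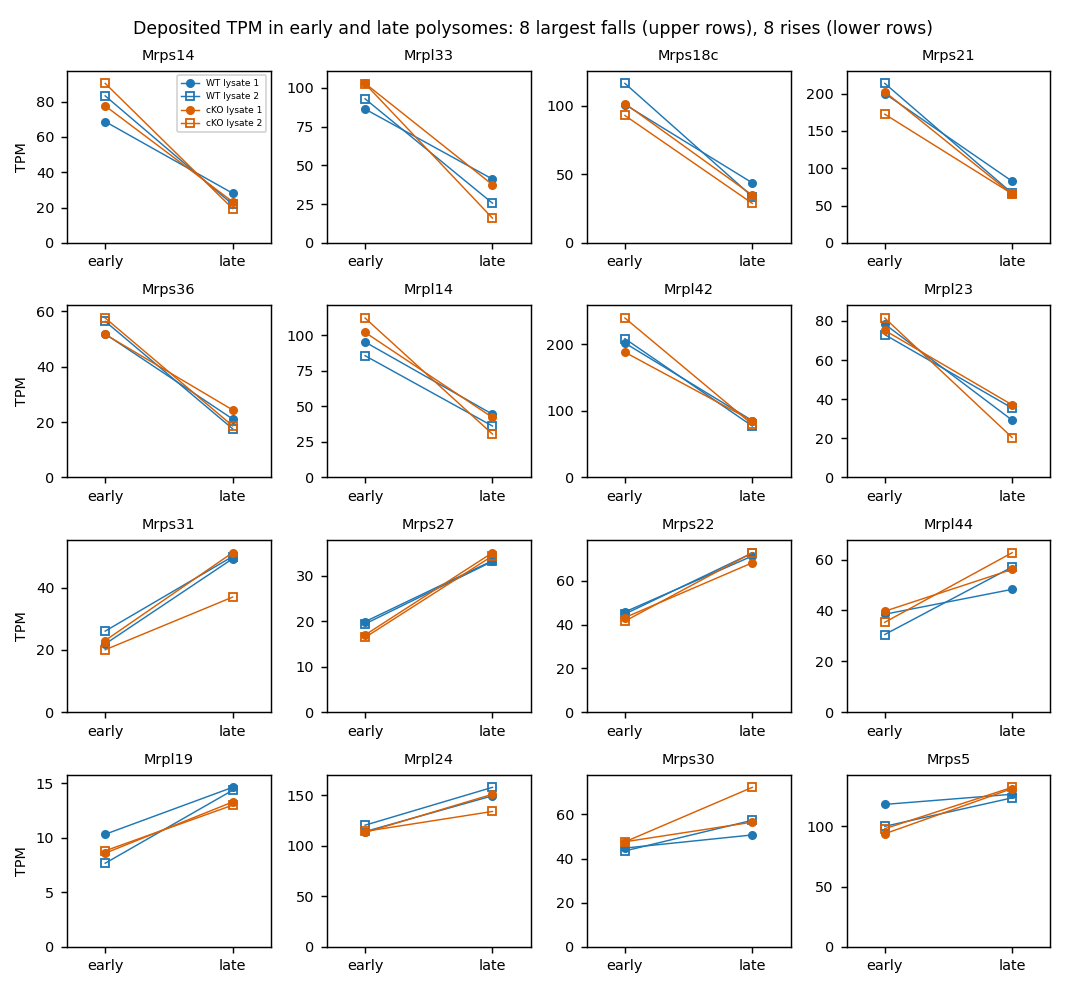
Deposited TPM (vertical axes from 0, 1 scale per gene) of the 8 members with the largest falls and the 8 that rose, with a line joining the early and late library of each lysate (blue WT, orange cKO; filled lysate 1, open lysate 2). Lines of the 8 fallers go down in every lysate, as in Mrps14 (68.7 to 90.3 TPM early, 19.4 to 28.1 TPM late), and those of Mrps31 and Mrps27 go up in every lysate.

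The 7 members that did not pass the test had changes between −0.25 and 0.19. They were Mrpl38 (−0.25), Mrps18b (−0.23), Mrpl45 (−0.09), Mrpl47 (0.02), Mrpl1 (0.07), Mrpl16 (0.08) and Mrps9 (0.19). Mrpl45, which helps to dock the ribosome at the inner membrane, was at 29.0, 27.6, 25.1 and 27.4 TPM in early libraries (WT then cKO) and at 28.1, 28.3, 26.8 and 27.6 TPM in late ones, so that fractions overlapped throughout. Mrpl1, a low member, was at 11.0 to 13.1 TPM in early and 13.3 to 14.2 TPM in late libraries. The paralogs derived from bacterial S18 took different courses. Mrps18a fell (−1.20 ± 0.11, SE, from 92.7 to 118 TPM in early to 45.6 to 51.7 TPM in late libraries), Mrps18c fell by 1.65, and Mrps18b, at 20.2 to 23.7 and 16.6 to 26.4 TPM, had a change of −0.23 ± 0.13 (SE, limma adjusted p = 0.147). Differences between the paralogs were not tested.

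By subunit, the large-subunit members numbered 50, of which 41 fell, 4 rose and 5 did not pass, with a median of −0.99. Of 26 small-subunit members 20 fell, 4 rose and 2 did not pass, with a median of −1.01. Proteins with a bacterial relative (46) had 39 falls and 3 rises with a median of −1.05, and the 30 specific to mitochondria had 22 falls and 5 rises with a median of −0.85. The 10 mitochondria-specific proteins of the small subunit held 3 of the 4 rises of that subunit (Mrps31, Mrps27 and Mrps22) and had a median of −0.68, beside −1.13 for its 16 proteins with a bacterial relative. In the large subunit the order was reversed, at −1.06 for 20 mitochondria-specific proteins and −0.99 for 30 with a bacterial relative. Median coding lengths in the same order were 708 and 529.5 nt in the small subunit and 543 and 589.5 nt in the large. Differences between these classes were not tested.

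Coding length moved with the change. The longest annotated reading frame of the members ran from 195 to 1326 nt with a median of 576 nt, against 1335 nt for all tested genes. Across the 77 members, Spearman's rho between coding length and the change was 0.83, and within single lysates it was 0.76, 0.79, 0.85 and 0.76 (WT 1, WT 2, cKO 1, cKO 2). It was 0.78 in the large and 0.86 in the small subunit, 0.87 across 78 cytosolic ribosomal protein genes, and 0.63 across 14675 tested genes. These are correlations across genes that share the same libraries, and are given as a description. Against the length of the longest transcript rho was 0.42, and against the mean level it was −0.22. The longest transcript was taken over annotated transcripts of every type, and coding length over protein-coding ones only. These lengths can therefore come from different transcripts, and the values of rho are not a like comparison.

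All tested genes with a coding sequence were then divided into 10 bins of equal number by coding length. All 77 members fell in the 5 shortest bins. The shares of all genes called in each bin were not counted, so the members' counts have no share beside them. In the shortest, 111 to 555 nt, all 34 members fell, with a median of −1.30 beside −1.12 for all genes of the bin. The quartiles of all genes there were −1.37 and −0.83, so most genes of this bin were also lower in late polysomes. From 555 to 786 nt 17 of 21 fell, and the medians were −0.94 and −0.63, with quartiles of all genes at −0.91 and −0.27. From 786 to 942 nt 7 of 9 fell, and the medians were −0.69 and −0.27, with quartiles of all genes at −0.62 and 0.10. In the next bin, up to 1101 nt, 3 of 6 fell and 2 rose, and the medians of members and all genes were −0.17 each. From 1101 to 1335 nt 1 of 7 fell and 4 rose, and the medians were 0.21 and 0.01. Of the 64 members in the 3 shortest bins, 49 lay below the median of their bin. Of the 13 in the other two, 8 lay above it. The part of coding length in the difference between fractions was not tested.

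Single members departed from genes of like length in both directions. Mrps31 lay 0.89 above the median of its bin and Mrps27 0.75 above. Mrpl24, with 648 nt, rose by 0.24 and lay 0.87 above. Mrpl21 has the same coding length of 648 nt and lay 0.76 below its bin, with 65.5 to 72.1 TPM in early and 18.7 to 35.0 TPM in late libraries (change −1.39 ± 0.16, SE, limma adjusted p = 0.000113). Mrpl2, a protein beside the peptidyl transferase centre, lay 0.84 below, at 92.5 to 107 TPM in early and 45.1 to 55.9 TPM in late libraries (change −1.10 ± 0.10, SE). Mrps14 lay 0.75 below. Mrpl37, the third longest member at 1269 nt, was the only fall in its bin (−0.62 ± 0.08, SE), whereas the other two longest, Mrps30 (1326 nt) and Mrps5 (1296 nt), rose.

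**Figure D3:**
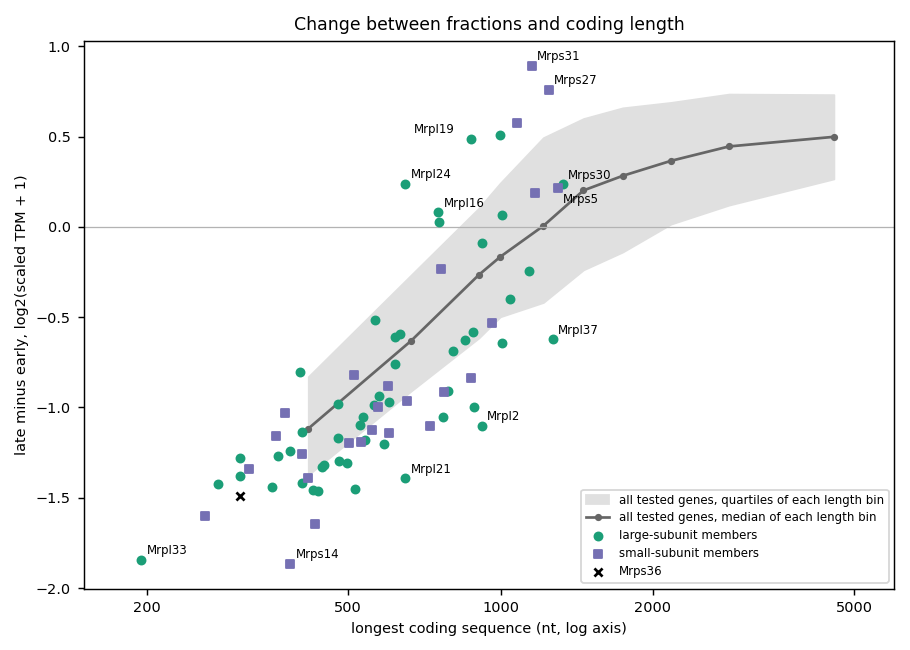
Late minus early difference, averaged over genotypes, against the longest coding sequence (log axis). Points are members by subunit, and the grey line and band are the median and quartiles of all tested genes in 10 bins of coding length. The shortest members lie lowest, with Mrpl33 (195 nt) at −1.84, and in the 3 shortest bins 49 of 64 members lie below the median of their bin.

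The mitoribosome also has subunits with other gene names, of which 6 were in the table. Ptcd3, a pentatricopeptide repeat protein of the small subunit, rose from 18.9 to 21.7 TPM in early to 28.0 to 34.3 TPM in late libraries (0.51 ± 0.08, SE, limma adjusted p = 0.000538). Dap3, a GTP-binding protein of the small subunit, rose by 0.43 ± 0.08 (SE). Chchd1, a small-subunit protein with a twin-cysteine fold, fell from 162 to 185 TPM in early to 34.3 to 59.7 TPM in late libraries, beyond the range of the Mrpl and Mrps genes (−1.92 ± 0.16, SE, limma adjusted p = 2.93e-05). Ict1, a peptidyl-tRNA hydrolase built into the large subunit, had a change of −1.19, Aurkaip1 one of −1.14 and Gadd45gip1 one of −0.69, and all of these passed the test.

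Genes whose products act with or on the mitoribosome gave other counts. Of 17 mitochondrial tRNA synthetases 10 rose and 1, Cars2, fell (−0.33), with a median of 0.36. The largest rises were Aars2 (1.05), Hars2 (0.90) and Vars2 (0.89). Of 14 translation factors 5 rose and 5 fell, with a median of −0.07. Gfm1, the elongation factor that moves the ribosome along, was at 22.9 to 26.6 TPM in early and 53.0 to 65.1 TPM in late libraries (1.09 ± 0.07, SE), and Tufm, the factor that delivers aminoacyl-tRNA, rose by 0.99. Of 25 genes of assembly and rRNA modification 9 rose and 9 fell, with a median of 0.06, from Ddx28 and Dhx30 (1.05 each), both RNA helicases, to Slirp (−1.95), the RNA-binding partner of Lrpprc. Cytosolic ribosomal proteins resembled the members more, with 69 of 79 lower, 0 higher and a median of −1.12, and of 81 nuclear respiratory chain genes 69 were lower and 9 higher, with a median of −1.33. The median coding length was 576 nt for the members, 468 nt for the cytosolic ribosomal proteins, 426 nt for the respiratory chain genes and 1138.5 nt for the translation factors. Whether the groups differ was not tested.

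**Figure D4:**
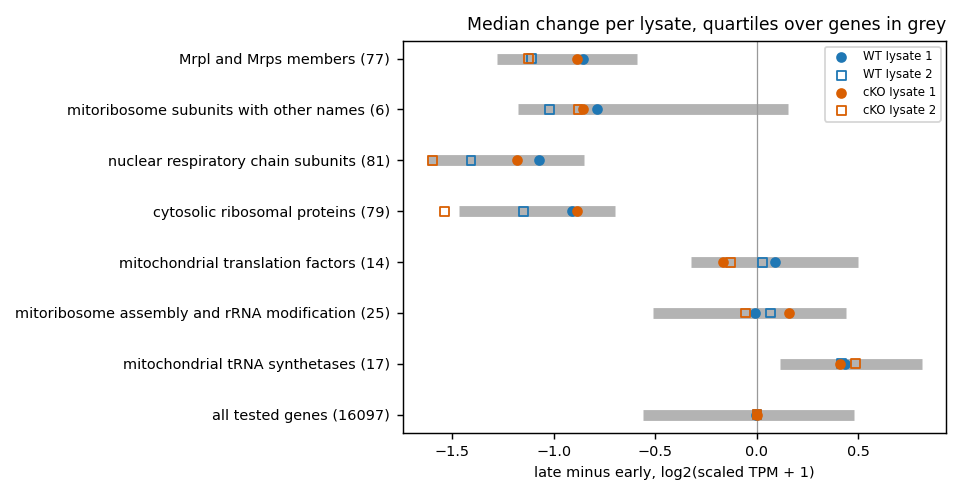
Median late minus early difference per lysate (symbols: blue WT, orange cKO; filled lysate 1, open lysate 2) and quartiles over genes of the average (grey bars), with the number of tested genes in brackets. The members' lysate medians lie between −1.13 and −0.86, those of the tRNA synthetases above 0, and the cytosolic ribosomal proteins spread further over lysates than the members, down to −1.54 in cKO lysate 2.

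Windows around the RefSeq transcription start (GRCm38.p6) were available for 68 members. From 45 bases before the start to 15 bases from it, with the first 5 transcribed bases in capitals, 3 members and 1 cytosolic ribosomal protein gene are shown because many mRNAs for cytosolic ribosomal proteins begin with a C followed by a run of pyrimidines, the 5′ terminal oligopyrimidine motif:
Mrps14: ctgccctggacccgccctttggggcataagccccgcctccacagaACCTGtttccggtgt
Mrpl33: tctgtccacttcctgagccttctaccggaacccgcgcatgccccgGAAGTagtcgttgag
Mrps31: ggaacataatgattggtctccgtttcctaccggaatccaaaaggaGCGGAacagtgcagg
Rplp2: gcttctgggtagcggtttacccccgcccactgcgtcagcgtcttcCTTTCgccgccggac
The Mrps14 window is chr1:160195170-160195229, the Mrpl33 window chr5:31613906-31613965, the Mrps31 window chr8:22411295-22411354 and the Rplp2 window chr7:141447606-141447665, all on the plus strand. A C followed by 4 pyrimidines stood at the annotated start in 0 of 68 members, in 13 of 58 cytosolic ribosomal protein genes (22.4%) and in 2.87% of 11970 tested genes. Rplp2 was picked among the cytosolic ribosomal protein genes with this match, and the 3 members by their change. The contrast between the windows shown was therefore set by the choice. A pyrimidine as the first base stood in 20 of 68 members (29.4%), in 27.7% of the tested genes and in 29 of 58 cytosolic ribosomal protein genes (50.0%). Annotated starts can be a few bases off, so these counts describe the annotated starts only.

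Letters of known promoter elements were searched on both strands of the 300 bases from 250 before to 50 after the start. CCGGAAG, the core bound by ETS factors, was found in 25 of 68 members (36.8%) and in 16.9% of all tested genes with a window. GCGC followed by any base and TGCGC, as bound by NRF1, a factor known for nuclear genes of mitochondrial proteins, was found in 13 members (19.1%) and 9.81% of those genes. AAGATGGC, as bound by YY1, was in 12 members (17.6%) and 4.49%, and can contain a start codon with G at +4, as in the Mrps27 context above. GGGCGG, the Sp1 box, was in 34 members, or 50.0%, and 63.3% of genes. TATAAA was in 5 members (7.35%) and 10.8% of genes. Related lists also carried such letters. The ETS core was in 23 of 58 cytosolic ribosomal protein genes (39.7%) and in 16 of 64 nuclear respiratory chain genes. The NRF1 letters were in 6 of 58 (10.3%) and 16 of 64, and the YY1 letters in 6 of 58 (10.3%) and 9 of 64 (14.1%). The letters were thus not particular to the members, and differences between lists were not tested. ETS-type letters stood in 22 of 55 falling members with a window and in 2 of 7 rising ones. These are matches of letters, not sites shown to be bound.

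The second comparison asked whether the members' difference between fractions was altered with loss of Mex3a. In WT, 62 members fell and 6 rose, beside 27.7% lower and 27.1% higher among all tested genes (54.8% in all), and the members' median was −1.02. Without WT early replicate 2, the library with the conflicting genotype tag, or without WT late replicate 2, 3 members rose in WT, and without the former 58 fell. Calls over all genes dropped as well in these fits, to 17.6% higher and 18.8% lower without WT early replicate 2 and to 18.7% and 19.7% without WT late replicate 2. In cKO, 61 members fell and 6 rose, beside 29.2% and 28.9% of genes (58.1% in all), with a median of −1.07. In both genotypes 61 members fell and 5 rose, and 0 had calls in opposite directions, beside 24.4%, 24.2% and 0.0124% of all tested genes. Mrpl24 and Mrpl3, a protein near the peptidyl transferase centre, passed in WT alone (0.28 and −0.49, against 0.20 and −0.31 in cKO), and Mrps5 passed in cKO alone (0.33, against 0.09 in WT).

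The interaction of genotype and fraction, which tests those differences directly, was passed by 0 members and by 0.00621% of all tested genes (limma, smallest member adjusted p = 1.00; 0 members at an unadjusted p under 0.05, against 2.85% of genes; voom on inferred reads also 0). The members' median interaction was −0.04, with quartiles at −0.16 and 0.12. The smallest unadjusted values were those of Mrps27 (0.27 ± 0.14, SE), Mrps28 (0.38 ± 0.21) and Mrps5 (0.24 ± 0.14), whose late minus early change was higher in cKO, and of Mrpl14 (−0.42 ± 0.25), Mrps24 (−0.55 ± 0.34) and Mrps14 (−0.37 ± 0.25), whose change was lower in cKO. The SE of a member's interaction had a median of 0.20 on the log2 scale and ran from 0.12 to 0.51, and differences as large as those of Mrps28 and Mrps24 did not pass at this precision.

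The third comparison set cKO against WT within a fraction. In early polysomes 0 members passed, beside 0.0435% of all tested genes (limma, smallest member adjusted p = 0.710). At an unadjusted p under 0.05, 4 members were higher in cKO and 0 lower, beside 6.65% of genes in either direction. The median difference was 0.04. In late polysomes 0 members passed, beside 0.0124% of genes (smallest member adjusted p = 0.397), with 5 higher and 0 lower at an unadjusted p under 0.05, beside 9.36% of genes, and a median of 0.02. On the mean of both fractions of each lysate 0 passed, beside 0.00621% of genes (smallest member adjusted p = 0.359), with 7 higher and 1 lower unadjusted, beside 11.3% of genes, and a median of 0.03. Voom on inferred reads also called 0 members in each of these, while among all 16085 genes it called 12 (0.0746%) in early polysomes, 15 (0.0933%) in late ones and 58 (0.361%, 20 higher and 38 lower) on the lysate mean. The median SE of a member was 0.14 within a fraction and 0.08 on the lysate mean.

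Mrps16, a small-subunit protein with a bacterial relative, had the largest genotype difference on the lysate mean. It had 65.2 and 67.3 TPM in early WT libraries against 76.5 and 84.1 TPM in early cKO libraries. In late polysomes the values were 25.1 and 30.8 TPM for WT and 33.3 and 43.2 TPM for cKO. Both cKO libraries lay above both WT libraries in each fraction, and the lysate-mean difference was 0.40 ± 0.11 (SE, n = 2 lysates per genotype, limma adjusted p = 0.367). Mrpl52, the most abundant member, was at 288 and 325 TPM in WT early and 369 and 382 TPM in cKO early, and at 163 and 125 TPM in WT late and 169 and 155 TPM in cKO late. The genotypes overlapped in late polysomes, and the lysate-mean difference was 0.28 ± 0.07 (SE, limma adjusted p = 0.359). Mrpl20 had a lysate-mean difference of 0.28 ± 0.08 (SE), and Mrpl12 one of 0.32 ± 0.12 (SE) in early polysomes. In late polysomes Mrps34 (0.39 ± 0.13) and Mrps28 (0.37 ± 0.15) followed Mrps16. Below 0, Mrps9, at 67.2 and 61.2 TPM in WT early and 54.4 and 45.8 TPM in cKO early, had a lysate-mean difference of −0.23 ± 0.09 (SE, limma adjusted p = 0.439), followed by Mrpl50 (−0.18 ± 0.07).

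Between lysates of the same number, the members' median cKO minus WT difference was 0.05 and 0.07 in early polysomes (numbers 1 and 2) and 0.06 and 0.00 in late ones. Cytosolic ribosomal proteins differed more: their medians were 0.13 and 0.20 in early polysomes, where 0 passed the test, and 0.18 and −0.17 in late ones, where the direction turned between the pairs of lysates. In such pairs the members' summed scaled TPM in cKO differed from that in WT by 5.79% and 5.72% in early polysomes and by 3.86% and 0.639% in late ones. In TPM as deposited, without scaling, the differences were 2.08% and 1.22% in early polysomes and, in the other direction, −0.0677% and −0.844% in late ones.

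**Figure D5:**
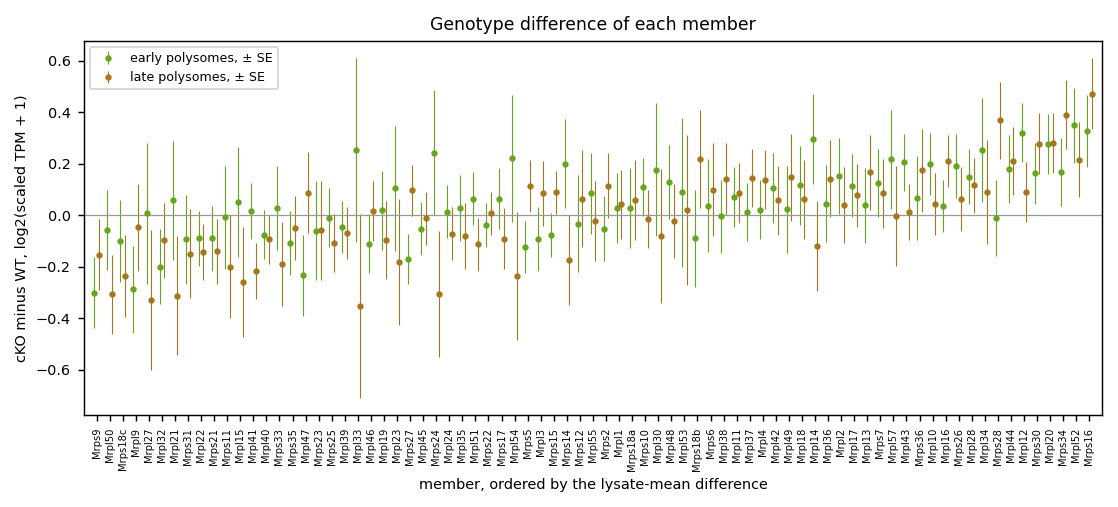
cKO minus WT difference in log2(scaled TPM + 1) of each member in early (green) and late (brown) polysomes, with bars of 1 SE from limma, ordered by the lysate-mean difference. Points scatter around 0 with medians of 0.04 (early) and 0.02 (late), from Mrps9 at the left to Mrps16 at the right, and 0 members passed the test.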

How the data were processed

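Polysome-bound RNA was measured in 8 libraries of a stranded total RNA kit, grouped by sample title. The authors deposited 1 table of TPM, with 21765 symbols and columns that each sum to 1000000. FastQC, cutadapt, STAR, DESeq2 and mm10 are listed in the submitters' processing notes, with no versions or roles; the counting method, its use of strand and the annotation are not given in the sources used here. The Cre line is not reported here. The deposited TPM of a gene moves in steps of 1 read, from which read numbers were recovered for 19783 genes with values in 2 or more libraries (100% of these, tolerance 0.001); on simulated data 98.8% of 19363 genes came back exact. Reads give the depth behind each value and cover counting error only.

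Libraries were brought to a common scale with median-ratio factors of 0.940 to 1.07, and limma 3.58.1 (R 4.3.3) was run on log2(scaled TPM + 1). Changes of low genes come out smaller on this scale than they are. The 4 groups were fitted together, with a mean-variance trend, over genes with a mean TPM of at least 1, and two-sided p-values were adjusted over all 16097 genes by the Benjamini-Hochberg method at 0.05. Genotype was also tested on the 4 lysate means. In simulated libraries of 15932 genes the fit recovered 190 of 195 genes changed 3-fold in the averaged late against early comparison, with 17 false calls, and 170 of 192 in cKO against WT early, with 14. On the lysate mean it recovered 188 of 192, with 22 false calls, and the interaction, with 0 genes changed, gave 4. The simulation had the same spread setting for all genes, no lysate effect and only 3-fold changes. It gives no recovery for smaller differences, such as those of the members between genotypes. Gene models came from GENCODE vM21 (77 of 77 members and 96.0% of the table's symbols matched), coding length is without the stop codon, and start windows came from RefSeq GRCm38.p6. Both may differ from the authors' annotation. By exons, 8 members overlap another gene on the same strand and 27 on the opposite strand.

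By the library names, early and late libraries with the same genotype and number come from 1 lysate. Deviations from group means correlated across genes at 0.0863 (WT) and 0.0502 (cKO) between these, and a fit blocked by lysate was an alternative. Between WT and cKO libraries of the same number they correlated at 0.332 (early) and 0.143 (late), but no label says that these numbers mark a shared batch. The members and gene lists were chosen with earlier results of these data known. Members named with values were the 5 highest and 5 lowest levels, the 8 largest rises and falls past the threshold, the 3 shortest and longest, the 3 farthest above and below their length bin, the 3 smallest p-values each way in each genotype comparison, the Mrps18 paralogs, Mrps36, and those called in 1 genotype alone; from other lists, up to 3 genes each way. The 7 members not called, Mrpl45 and Mrpl1 among them, and the roles given were added after their values were seen. Figures were drawn with matplotlib 3.10.9.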

Additional observations from a re-analysis of the deposited data

How the results depend on the processing

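Of the 70 members called between late and early polysomes on average, 67 kept their call and direction under all 17 alternatives run (pseudocounts of 0.1 and 0.5, no filter or one at a mean of 5 TPM, quantile normalization, unscaled TPM, no trend, voom on inferred reads, the lysate block, and leaving out each of the 8 libraries), and 0 reversed. Mrpl24, Mrps30 and Mrps5 lost theirs in 2, 7 and 6 of these, with adjusted p of at most 0.0605, 0.112 and 0.0979. Without 1 library, the members called higher were 6 to 7 on average, 3 to 6 in WT and 4 to 6 in cKO, and those called lower 62 to 63, 58 to 63 and 60 to 61. With TPM as deposited, 10 members were called higher in late than in early polysomes of cKO, in place of 6. Calls over all genes in that comparison went to 34.0% higher and 24.8% lower from 28.9% and 29.2%. Unscaled TPM put the median of all genes there at 0.10 in place of −0.01, and the mean of the lysate medians of the members at −0.88. With the replicate block by lysate, 8 members were higher and 63 lower on average, 5 and 63 in WT, and 6 and 62 in cKO, and 0 passed the interaction. With the replicate block on the number shared by WT and cKO, 0 members were called in either fraction or on the lysate mean, while over all genes the calls were 7, 2 and 85 (39 higher and 46 lower on the lysate mean, against 1 without the block). In the other fits run 0 members were called between genotypes either, with up to 58 calls over all genes (voom, lysate mean). Adding the 6 subunits with other names gave 10 higher and 66 lower. Spearman's rho against the longest transcript of any type was 0.42 in place of 0.83 against coding length, which used protein-coding transcripts only. It was 0.83 against the longest reading frame of any annotated transcript, an alternative chosen after seeing the data. RefSeq protein length was not run. With 2 lysates per genotype, the median SE of a member's genotype difference within a fraction was 0.14.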
